A study of Homo sapiens with 54 samples.

Results

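201B7 is a human induced pluripotent stem cell (iPSC) line made from dermal fibroblasts. One 201B7 culture kept for 50 days with FGFC was set against 1 kept for 50 days with bFGF, each at 10 ng/mL. The samples were chosen by their titles and are 4 of the 54 arrays of the series, 2 arrays for each culture. FGFC is a chimera of FGF1 and FGF2 with high stability, and the study asked whether it can stand in for bFGF when pluripotent cells are maintained. Both 201B7 cultures were at passage 40 and grew in a medium with serum replacement on mitomycin C-treated mouse embryonic fibroblasts. The 201B7 pre-culture, at passage 30 and also with 10 ng/mL bFGF, was measured on 2 further arrays. The other long-term systems each had 1 culture a side. H1 embryonic stem cells (ESCs) were in E8 Medium (30 days, 100 ng/mL, passage 58). H1 was also in MEF-conditioned medium (41 days, 5 ng/mL, passage 63). KhES-1 ESCs were on feeders (30 days, 5 ng/mL, passage 40), and 253G1 iPSCs in E8 Medium (36 days, 100 ng/mL, passage 52). Further H1 cultures in E8 Medium were pre-cultures and cultures kept for 4 days with bFGF or FGFC (100 ng/mL) or without FGF. A differentiated H1 culture, measured on 2 arrays, came from embryoid body formation in the study.

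The arrays were 1-colour Agilent arrays with 42405 probes for human transcripts. The level of a probe is its log2 signal minus the 75th percentile of the array, so that 0 is the signal at that percentile. The 2 arrays of a culture count as 1 culture, and a spread between them is technical. With 1 culture a side no test of FGFC against bFGF was possible in 201B7, and the counts compare these 2 cultures, not the conditions. The 4 arrays lay on 1 slide, and the pre-culture lay on another. On these 4 arrays 66.3% to 70.8% of probes were well above background by the scanner software's mark, against 64.3% and 65.4% on the pre-culture arrays, and the number of arrays limits the precision. RNA of the mouse feeder cells and of the human cells cannot be told apart on these probes. In a culture measured in bulk, fewer cells of a type and less RNA per cell cannot be told apart either.

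FGF signalling through ERK is one of the inputs that hold human pluripotent stem cells in the primed state, beside TGF-beta and Nodal signalling. Cells in this state have high levels of POU5F1, SOX2 and NANOG and keep HOX clusters and other developmental regulators silent or nearly so. Fibroblasts, from which iPSCs are often made and on which they are often grown, have positional HOX genes, EMT regulators and many matrix genes active.

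A probe entered the comparison, and is called tested, when it was well above background on both arrays of at least 1 of the 2 cultures, which held for 29358 probes. It was counted as lower or higher when the FGFC array was at least 2-fold below or above the bFGF array on array 1 and on array 2 alike. By this rule 673 probes, 2.29% of those tested, were lower with FGFC and 46 probes, 0.157%, were higher. Lower probes thus made up 93.6% of all changed probes, and 75.1% under quantile normalization. The median difference over all tested probes was -0.03 on the log2 scale. The lower probes had a median difference of -1.36, with -1.33 on array 1 and -1.35 on array 2, and 36 of them were 4-fold or more below on both arrays. As a measure of array noise, the difference between the 2 arrays of a culture had an SD of 0.21 with bFGF and 0.26 with FGFC over the tested probes. In the other 4 systems the same rule gave 0.951% lower and 0.495% higher probes for H1 in E8 Medium, 0.101% and 0.201% for KhES-1, 1.07% and 0.323% for H1 in MEF-conditioned medium, and 0.975% and 0.261% for 253G1.

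**Figure D1:**
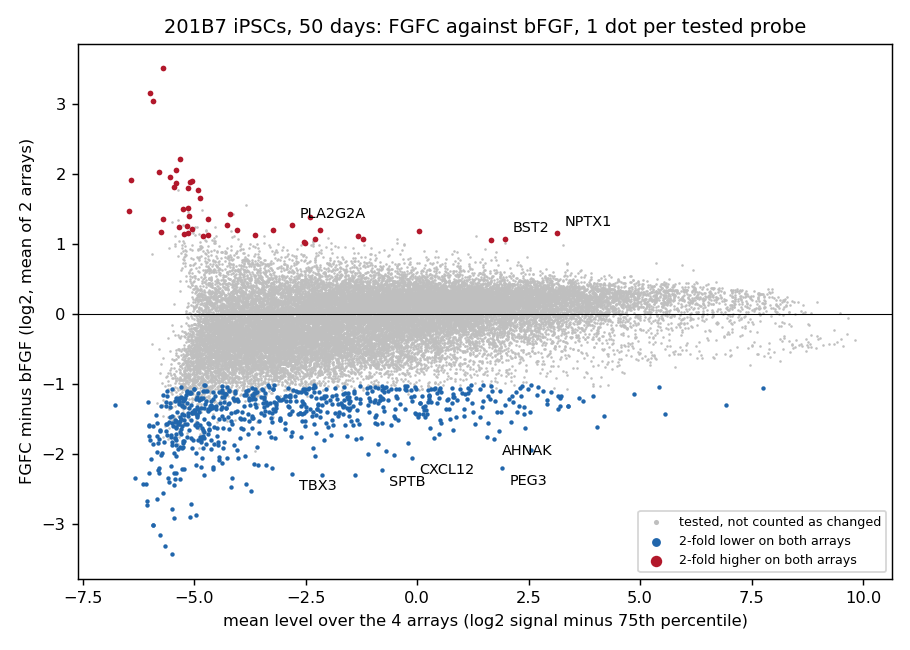
Each tested probe of 201B7 is plotted by its mean level over the 4 arrays (x axis, log2 signal minus 75th percentile) and its FGFC minus bFGF difference (y axis, log2, mean of 2 arrays). The 673 lower probes (blue) spread over most of the range of levels, and most of the 46 higher probes (red) lie at its dim end.

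Changes were most common among dim probes. In the dimmest quartile of the tested probes 352 of 7340 (4.80%) were lower, and in the brightest quartile 70 of 7340 (0.954%). Of the 673 lower probes 404 were well above background on all 4 arrays, 232 were dim on both FGFC arrays and 37 on 1 of them. Of the 46 higher probes only 15 were well above background on all 4 arrays, and 28 were dim on both bFGF arrays. The threshold cut through a dense region. Among the lower probes 184 had a smaller array difference within 0.1 of the threshold, and 239 further probes missed it by 0.1 or less. Named genes close to it were TRIM3 at 1.0008 inside and GSN at 0.9987 outside, as the smaller fall of the 2 arrays on the log2 scale.

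Probes for non-coding transcripts took a large part of the lower set. Probes for long intergenic non-coding regions (lincRNA regions) were lower in 180 of 4805 tested (3.75%), and 0 of them were higher. Their median difference was -0.39. Probes with an mRNA accession were lower in 339 of 19400 (1.75%) and higher in 34, with a median difference of 0.08. Among Ensembl transcripts 42 of 1366 (3.07%) were lower, among non-coding accessions 32 of 1282 (2.50%), and among other transcripts and tags 80 of 2505 (3.19%). The classes thus differed in their medians over all tested probes and not only in the count past the threshold. Class and signal level were not separated.

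Named genes were the largest falls among probes with a symbol that were well above background on all 4 arrays. PEG3, an imprinted zinc finger gene expressed from the paternal allele, was at 2.99 and 3.03 with bFGF and at 0.65 and 0.95 with FGFC. The fold was 4.62 (log2 difference -2.21 ± 0.19, SD of 2 arrays). The pre-culture was higher still, at 4.06 and 4.52. TBX3, a T-box repressor that acts in limb, heart and amnion development and is also listed among naive-state factors, was at -1.66 and -1.69 with bFGF and at -4.28 and -3.65 with FGFC, 4.88-fold lower (-2.29 ± 0.46). Its second probe was not above background in either culture.

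SPTB encodes beta-spectrin of the red cell membrane skeleton. One SPTB probe was at 0.32 and 0.33 with bFGF and at -2.09 and -1.73 with FGFC (4.70-fold lower), and another was at -1.30 and -1.06 against -3.02 and -2.95 (3.50-fold lower). The remaining SPTB probe was at -3.72 and -3.72 against -3.36 and -3.74 and was not counted as changed. The 3 probes thus disagreed on the gene as a whole, and which transcripts they detect is not given in the sources used here. In the list of erythroid and membrane skeleton genes, which takes SPTB by that unchanged probe, 0 of 10 tested genes were lower. That count is near the background of 2.29% lower probes. With any probe of a gene counted, SPTB was the 1 lower gene of the list.

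The same disagreement held for many genes. Of 384 named genes with a lower probe, 122 had more than 1 tested probe, and in only 11 of them were all tested probes lower, namely AZIN2, CHRNA1, COL12A1, DCN, EBF1, MBNL2, NR4A2, PDZRN4, SH3PXD2A, SNORA73B and ZEB2. The other probes of these genes had a median difference of -0.12. CXCL12, a chemokine that guides stem and immune cells, was 4.16-fold lower by 1 probe (0.98 and 0.83 against -1.16 and -1.15), while its other 3 probes differed by 0.39, -0.16 and 0.30. AHNAK, a giant scaffold protein, was 3.44-fold lower by 1 probe (2.55 and 2.69 against 0.78 and 0.89) and differed by -0.11 and 0.46 by its others. ATRX, a chromatin remodeller, was 3.59-fold lower by 1 of 4 probes, and the other 3 differed by -0.19, -0.17 and -0.47. CDCA5, which holds sister chromatids together, was 4.08-fold lower by a probe for an Ensembl transcript and differed by 0.21 by its RefSeq probe.

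Several of the other large falls were genes of the matrix, of adhesion and of signalling. COL12A1, a fibril-associated collagen, was 3.26-fold lower by the named probe (-2.77 and -2.64 against -4.48 and -4.34) and was lower by its other probe too (-1.13). THBS2, a matrix protein that restrains blood vessel growth, was 3.08-fold lower (0.99 and 1.22 against -0.63 and -0.40), and its other probe differed by -0.61. CSF1, the growth factor of macrophages, was 3.12-fold lower by 1 probe (-2.07 and -2.23 against -3.65 and -3.94) and lower by another at -1.54. The remaining CSF1 probe differed by -0.43. PCDH9 and PCDHGC4, both protocadherins, were 3.31-fold and 3.40-fold lower. MYOF, a membrane repair protein, was 3.42-fold lower, and GRIA3, a glutamate receptor subunit, 3.07-fold. CXCR3, a chemokine receptor of T cells, was 3.62-fold lower. For MYOF, GRIA3 and CXCR3 the other probe differed by -0.25, 0.30 and -0.13. AZIN2, a regulator of polyamine synthesis, was lower by both probes, 3.35-fold by the named one. TINAG was 4.42-fold, PDZRN4 3.29-fold and LINC02873 3.39-fold lower. Normexp is another background correction that starts from the raw spot and background signals. It was run with an offset of 50 added to every signal, which shrinks differences most where signals are dim. A gene not counted under normexp is thus not shown to be unchanged. Normexp gave smaller differences for most of these genes. Under it TINAG (-0.94), PDZRN4 (-0.74), COL12A1 (-0.86), CSF1 (-0.94), PCDHGC4 (-0.97) and LINC02873 were not 2-fold lower on both arrays by the named probe. TBX3 (-1.23), CDCA5 (-1.30), GRIA3 (-1.14), PCDH9 (-1.24) and the second SPTB probe (-1.22) were still counted, as were PEG3 (-2.11), AHNAK (-1.77), ATRX (-1.74) and CXCL12 (-1.73).

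Where a probe was dim on both FGFC arrays only a lower bound was possible, the bFGF mean against the lowest signal of any spot well above background on each FGFC array or the probe's own signal, whichever was higher. LETR1 was at least 5.78-fold lower with FGFC. The bound was 3.24-fold for CPNE6, 2.88-fold for GCM2, the transcription factor of the parathyroid, 2.74-fold for LOC284009, 2.60-fold for LMO7DN, 2.45-fold for SLA2, 2.25-fold for MAS1 and 2.24-fold for TEX50. These bounds hold for background-subtracted signals as deposited. Under normexp none of these 8 genes was 2-fold lower on both arrays. Its offset limits the fold that signals this dim can reach, so this is no check of the falls. None of the 8 was at its highest in the bFGF culture. Cultures of other lines reached -1.49 for LMO7DN, -0.78 for LETR1, -3.45 for LOC284009, -3.66 for SLA2 and -3.93 for TEX50. Their bFGF means in 201B7 were -3.79, -2.47, -3.72, -3.88 and -4.01. The TEX50 value elsewhere came from 1 array of the 30-day H1 culture with bFGF in E8 Medium, at -1.49 against -6.37. For GCM2, CPNE6 and MAS1 only the 201B7 pre-culture was higher.

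**Figure D2:**
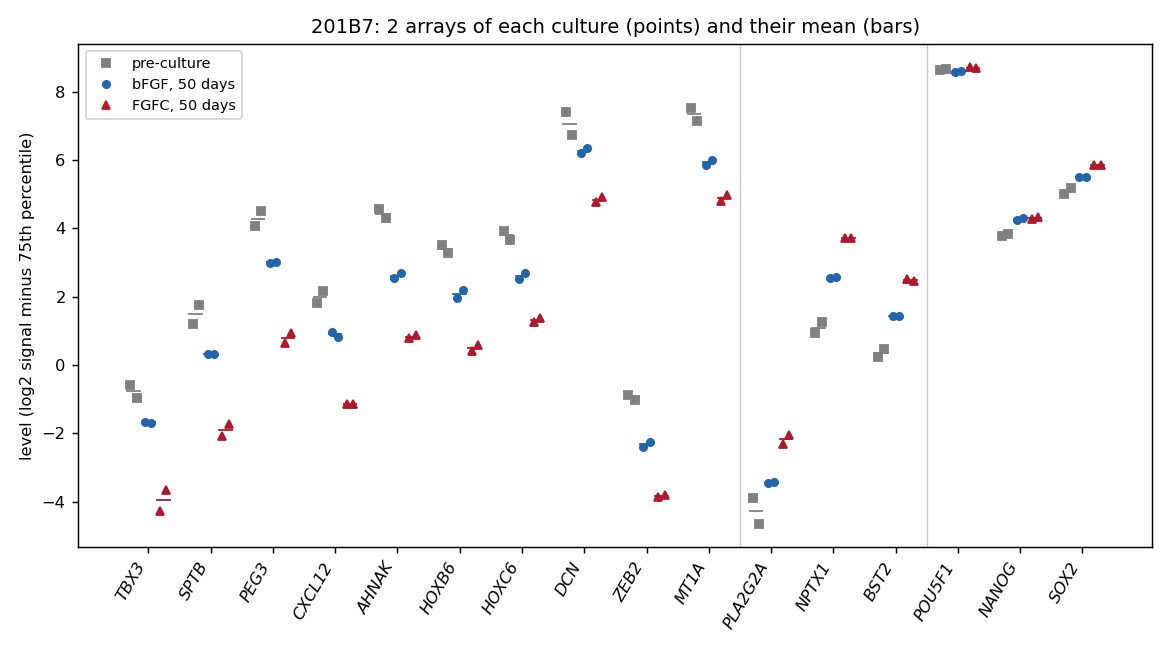
Levels (y axis, log2 signal minus 75th percentile) of 16 genes on both arrays of the 201B7 pre-culture (squares), the bFGF culture (circles) and the FGFC culture (triangles), with bars at the means, for genes lower with FGFC (left), higher (middle) and 3 pluripotency genes (right). The lower genes step down from pre-culture to bFGF to FGFC, and POU5F1, at 8.58 to 8.74 after 50 days, stays level.

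The promoters of SPTB, with its large difference by 2 probes, and of PLA2G2A, a higher gene, are shown and were searched for E2 boxes, the site of ZEB factors, and for the AP-1 motif. Both are the 250 bases before the first RefSeq start that the promoter table lists, of 2 for SPTB and 3 for PLA2G2A, on the minus strand (GRCh38.p14), 5′ to 3′, SPTB at chr14:64879908-64880157 and PLA2G2A at chr1:19979660-19979909. Capitals mark E2 boxes (CACCTG on either strand). The SPTB window holds 2 of them, 208 and 178 bases before the start, and the PLA2G2A window holds 0, as does that of CXCL12, a gene with a lower probe. The PLA2G2A window lies inside the gene's span, since another of its starts is further upstream. The window of the promoter table held an E2 box for 4781 of 27305 genes (17.5%), for 35 of the 266 matched genes with a lower probe (13.2%) and for 5 of the 26 with a higher one (19.2%). The AP-1 motif TGANTCA was in 6.60%, 7.89% and 7.69% of them.
SPTB: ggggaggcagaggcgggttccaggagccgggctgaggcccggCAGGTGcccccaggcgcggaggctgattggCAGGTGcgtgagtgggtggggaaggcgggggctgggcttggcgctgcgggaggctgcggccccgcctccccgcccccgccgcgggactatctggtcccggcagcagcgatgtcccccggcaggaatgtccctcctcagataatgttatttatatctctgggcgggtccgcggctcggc
PLA2G2A: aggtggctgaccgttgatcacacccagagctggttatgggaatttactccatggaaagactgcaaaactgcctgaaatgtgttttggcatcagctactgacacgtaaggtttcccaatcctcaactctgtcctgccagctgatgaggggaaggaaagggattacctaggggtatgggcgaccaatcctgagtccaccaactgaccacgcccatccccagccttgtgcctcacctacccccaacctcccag

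Gene lists were described by 1 probe per gene, that of highest mean signal in the series. HOX genes, which give cells their position along the body axis, stood lowest of all 46 lists. Of 15 tested HOX genes 9 were lower with FGFC, 0 were higher and all 15 had a difference below 0, with a median of -1.24 against -0.03 for all tested probes. Under normexp 3 of the 15 were counted, HOXB2, HOXB6 and HOXC6, and the median was -0.80. The other 23 HOX genes on the array were not tested, since neither culture had them well above background on both arrays. The lower genes came from 3 clusters, HOXA5 from the A cluster, HOXB2, HOXB5 and HOXB6 from the B cluster, and HOXC4, HOXC5, HOXC6, HOXC9 and HOXC10 from the C cluster. HOXB6 was at 1.95 and 2.19 with bFGF and at 0.41 and 0.59 with FGFC (-1.57 ± 0.04), and HOXC6 was at 2.53 and 2.71 against 1.25 and 1.38 (-1.30 ± 0.03). Both had been higher in the pre-culture, with means of 3.40 and 3.79. Of the members that were not counted, HOXC8 differed by -1.15, HOXB8 by -0.99 and HOXA10 by -0.19.

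EMT regulators and cadherins followed in the order of list medians, at -0.60. Of 13 tested genes 4 were lower and 0 higher. ZEB2 was at -2.39 and -2.26 with bFGF and at -3.88 and -3.81 with FGFC (-1.52 ± 0.05) and was lower by its second probe as well. ZEB1 was at 1.22 and 1.37 against 0.00 and 0.12 (-1.23 ± 0.02). The second probes of ZEB1 and TWIST1 were not above background. TWIST1, a basic helix-loop-helix factor of mesenchyme, differed by -1.29 ± 0.04, and CDH11, the mesenchymal cadherin, by -1.31 ± 0.13. The epithelial members of the list lay on the other side of 0, with CDH1 at 0.25, EPCAM at 0.20 and CLDN6 at 0.22, none of which was counted. These values are near the median of 0.13 for reference genes and are not read as a gain. SNAI1 was at 0.45 and SNAI2 at -1.05, so that the EMT factors did not move as a block. Under normexp ZEB2 was not counted and the other 3 were.

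Matrix genes outside the collagens had a median of -0.52, with 5 of 25 tested genes lower and 0 higher. FN1, the fibronectin gene, was at -0.998 and -1.09 with bFGF and at -2.47 and -2.45 with FGFC (-1.41 ± 0.08). LOX and LOXL1, which crosslink collagen and elastin, differed by -1.39 ± 0.03 and -1.17 ± 0.03, and NID1, a basement membrane linker, by -1.10 ± 0.11. DCN, a small proteoglycan that binds collagen fibrils, was at 6.20 and 6.35 against 4.77 and 4.93 (-1.43 ± 0.01). NID2 at 0.79 and EFEMP1 at 0.61 had the highest values of the list. Under normexp only LOXL1 and DCN of this list were counted. Of 31 tested collagens only COL8A1 (-1.56) and COL12A1 (-1.13) were lower and the median was -0.12, and only COL8A1 was counted under normexp.

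These groups overlap with what fibroblasts express, so fibroblast and feeder markers are given in full. Of 15 such markers 14 were on the array and 10 were tested, and 2 of them, PDGFRA and DCN, were lower. The difference lay below 0 for 8 of the 10, with a median of -0.51. PDGFRA differed by -1.28, DCN by -1.43, VIM by -0.65, THY1 by -0.58, DPT by -0.52, COL1A2 by -0.51, POSTN by -0.43 and COL1A1 by -0.29, while PDGFRB was at 0.16 and S100A4 at 0.41. LUM, COL3A1, FAP and PRRX1 of the same list were not above background in either culture, at levels from -7.34 to -6.87. The summed level of the list was 7.49 and 7.57 on the bFGF arrays and 6.64 and 6.71 on the FGFC arrays, and 8.68 and 8.30 on the pre-culture arrays. In KhES-1, grown on feeders as well, it was 6.15 to 6.54, in H1 in MEF-conditioned medium 7.43 to 7.87 and in differentiated H1 8.52. The part of fibroblasts in these differences was not tested.

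Metallothioneins, which bind zinc and copper, all lay below 0. Of 11 tested genes MT1A (5.87 and 6.00 against 4.81 and 4.98) and MT1H (4.45 and 4.62 against 3.28 and 3.44) were lower, and the others ranged from -0.82 to -0.17. Of 9 tested T-box genes TBX3, TBX2 (-1.21) and TBX15 (-1.20) were lower. The T-box median was -0.31 in 201B7, and -0.53, -0.06, -0.04 and 0.28 in the other systems in the same order. Of 31 tested clustered protocadherins, which give neurons their surface identity, 28 lay below 0 with a median of -0.34, and only PCDHGA8 was counted (-1.46 ± 0.17). Other lists had single lower members. These included FGF7 (-1.18) and FGF18 (-1.38) among 20 FGF ligands and receptors, INHBA (-1.22) among Nodal pathway genes, NR4A2 (-1.56) among immediate-early genes, FZD1 (-1.19), PLK3 (-1.33), IGFBP7 (-1.05) and the YAP/TEAD target ARHGEF17 (-1.12). Of the genes in this paragraph only MT1H, TBX3, PCDHGA8, INHBA, NR4A2 and PLK3 were counted under normexp.

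**Figure D3:**
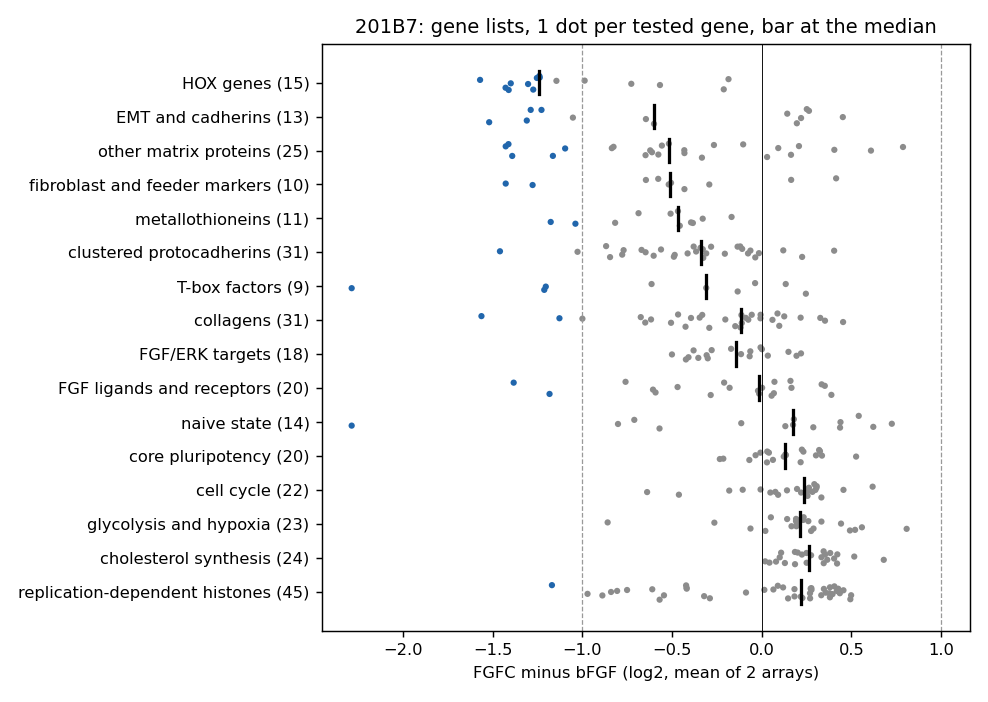
Differences between FGFC and bFGF in 201B7 (x axis, log2, mean of 2 arrays) for the tested genes of 16 lists (y axis, number of tested genes in brackets), with lower genes in blue, others in grey and a bar at each median. Dashed lines mark 2-fold, and HOX genes lie furthest to the left with a median of -1.24.

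Genes of the pluripotent state were not among those lower. All 20 core pluripotency genes were well above background on every one of the 4 arrays, 0 were counted as changed, and their differences ran from -0.23 to 0.53 with a median of 0.13. POU5F1 was at 8.58 and 8.60 with bFGF and at 8.74 and 8.69 with FGFC, NANOG at 4.26 and 4.31 against 4.29 and 4.34, and SOX2 at 5.51 and 5.51 against 5.85 and 5.85. The differences of POU5F1 and SOX2 were 0.12 and 0.34, beside a median of 0.13 for reference genes. DNMT3B differed by 0.04, LIN28A by 0.32, LIN28B by 0.30, CRIPTO by 0.22, ZFP42 by 0.32, TERT by -0.01, DPPA4 by 0.23, SALL4 by 0.03 and L1TD1 by -0.07. GDF3 had the lowest difference of the list at -0.23, with PRDM14 at -0.21, UTF1 at -0.03, FOXD3 at 0.06, USP44 at 0.13, VRTN at 0.14 and PODXL at 0.22. Targets and feedback regulators of FGF/ERK signalling were not counted either, in 0 of 18 tested genes, with a median of -0.14. At a background of 2.29% lower and 0.157% higher probes a count of 0 in lists of 18 or 20 genes is near that background and says nothing particular about them. Among them DUSP6, a phosphatase of ERK, differed by -0.41, SPRY4 by -0.30, ETV4 by -0.38 and ETV5 by -0.50.

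Several lists with a median above 0 held no gene counted as changed, which is near the background of 2.29% lower and 0.157% higher probes. All 24 cholesterol synthesis genes had a difference above 0, from 0.02 to 0.68 with a median of 0.26. This list median was 0.21 in H1 in E8 Medium, -0.06 in MEF-conditioned medium, 0.07 in KhES-1 and 0.20 in 253G1. The share of all tested probes above 0 was not counted, and probes with an mRNA accession had a median of 0.08. Cell cycle genes (22 tested), glycolysis and hypoxia genes (23) and Notch pathway genes (16) had medians of 0.24, 0.22 and 0.25. Reference genes had a median of 0.13 with 9 of 11 above 0, and their summed level was 11.03 on both bFGF arrays and 11.03 and 11.06 on the FGFC arrays.

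The 46 higher probes formed no list of their own. PLA2G2A, a secreted phospholipase A2 of inflammation and host defence, was at -3.45 and -3.44 with bFGF and at -2.30 and -2.04 with FGFC, 2.41-fold higher (1.27 ± 0.17). It was the only one of 5 tested secreted phospholipases A2 to be counted. NPTX1, a neuronal pentraxin, was at 2.56 and 2.57 against 3.73 and 3.71, 2.22-fold higher (1.15 ± 0.03). BST2, an interferon-induced membrane protein that tethers viruses, was 2.09-fold higher by 1 probe (1.43 and 1.44 against 2.53 and 2.47), and its second probe differed by 1.11 but missed the threshold on array 1. The other named genes were LAMB2P1 (2.60-fold), DEPP1 (2.30-fold), SMIM24 (2.30-fold), MEIOC (2.29-fold), NCMAP (2.18-fold), SIRT4 (2.11-fold), MEDAG (2.09-fold), LHPP (2.08-fold), CLIC6 (2.04-fold) and ALOX5 (2.02-fold). Of probes dim on both bFGF arrays, ODAPH was at least 2.52-fold, AKAP14 at least 2.28-fold, WNT4 at least 2.10-fold, LOC100128573 at least 2.04-fold and LOC401410 at least 1.86-fold higher with FGFC, with the bound taken in the same way. Under normexp none of these 5 was counted, and its offset limits the fold that signals this dim can reach. Of the genes above background on all 4 arrays that are named here, NPTX1 (1.09) and BST2 (1.07) were counted under normexp. LHPP (1.04) missed the threshold on array 1, and PLA2G2A (0.65), MEDAG (0.89), LAMB2P1 (0.80), SMIM24 (0.71), SIRT4 (0.57), ALOX5 (0.53), DEPP1 (0.46), CLIC6 (0.46), NCMAP (0.38) and MEIOC (0.25) were under 2-fold.

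The pre-culture was then set beside both arms as a level, since it shares its line with both. The median level of the 673 lower probes was -1.47 and -1.62 on the pre-culture arrays, -2.68 and -2.57 on the bFGF arrays and -4.02 and -3.95 on the FGFC arrays. Over all tested probes the medians were -1.09 and -1.10, -1.14 and -1.15, and -1.22 and -1.23. That bFGF lay above FGFC was set by the choice of probes, and only the place of the pre-culture was not. The pre-culture arrays had 75th percentile signals of 182 and 234, the lowest of the 54 arrays, against 504 to 632 on the arrays of both arms, and the part of this in the levels was not tested. Of the lower probes 84.0% were well above background in the pre-culture. For the 46 higher probes the order was the opposite, with -6.07 and -5.98 in the pre-culture, -5.57 and -5.66 with bFGF and -4.08 and -4.22 with FGFC. Only 19.6% of these probes were well above background in the pre-culture and 32.6% with bFGF, so most of these levels were not well above background. Since passage, slide and time differ between the pre-culture and the arms, these cannot be told apart.

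The lower probes were also high in 201B7 as compared with the other lines. In the other 24 cultures of the series their median level was -5.49 to -3.98 (median -4.52), and the KhES-1 cultures on feeders had -5.25, -5.49 and -5.36. The 201B7 culture with FGFC, at -4.02, reached the upper end of this range, and the bFGF culture lay outside it. Of the 673 probes 403 (59.9%) were higher in the bFGF culture than in each of the other 24 cultures, against 2309 of all 29358 tested probes (7.86%). For the FGFC culture it was 171 (25.4%) against 1233 (4.20%). The rule itself favoured probes high with bFGF, so these shares are a description. DCN was at -4.41 and -4.38 in the KhES-1 bFGF and FGFC cultures and PEG3 at -4.27 and -3.99. HOXB6 was at -7.26 and -6.72 there and at 1.22 in the differentiated H1 culture, its highest level outside 201B7. The named CXCR3, TINAG and LINC02873 probes and the SPTB probe with the larger difference were well above background in 0 of the other 24 cultures, and the second SPTB probe in 8.

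**Figure D4:**
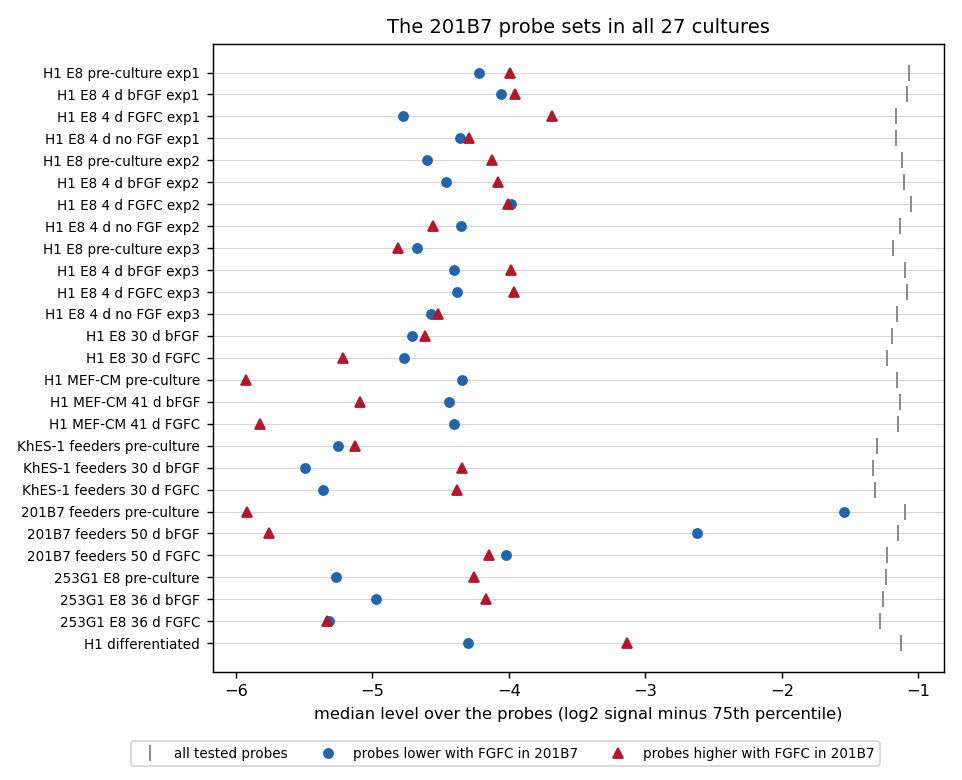
Median level (x axis, log2 signal minus 75th percentile) of the 673 lower probes (circles), the 46 higher probes (triangles) and all tested probes (ticks) in each of the 27 cultures (y axis). For the lower probes the 201B7 pre-culture (-1.55) and bFGF culture (-2.63) stand to the right of all others, while the FGFC culture (-4.02) is close to the highest of the other 24 (-3.98).

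Whether 201B7 responded differently from the other systems was tested on the FGFC minus bFGF differences of the 5 systems with limma. The 201B7 difference was compared with the other 4, its own spread being taken from theirs, and both H1 systems share a line. In this test 0 of 42402 probes passed an adjusted p of 0.05, and 4803 had an unadjusted p under 0.05. The test of all 4 other systems against 0 also passed 0 probes, with 3433 at an unadjusted p under 0.05. Under normexp background correction 92 probes were lower and 3 higher in 201B7 than in the others at limma's adjusted p of 0.05, and 87 of the 92 were among the 673. The 673 were chosen on the same 201B7 difference, so this overlap is no independent support. AHNAK, SPTB, CXCL12, CXCR3 and DCN were among the 92. Their 201B7 difference minus the mean of the others was -1.74, -1.72, -1.82, -1.53 and -1.30 under normexp. Of the 24 cultures outside 201B7, the SPTB and CXCR3 probes were well above background in 0, DCN in 4, CXCL12 in 11 and AHNAK in 16. The offset of normexp shrinks the differences of dim signals and so the spread taken from the other systems. Passing is therefore not read as a different response to FGFC.

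The median difference of the 673 lower probes in the other systems was -0.12 for H1 in E8 Medium, 0.07 for KhES-1, -0.07 for 253G1 and -0.0042 for H1 in MEF-conditioned medium. TBX3, well above background in 7 of the other 24 cultures, had a difference of 2.49 in 253G1 against -2.29 in 201B7. In 253G1 it was at -6.09 and -6.02 with bFGF and at -1.08 and -6.06 with FGFC, so that 1 array made this difference. The limma contrast, which includes that array, was -2.99 ± 1.16 (SE, adjusted p = 0.440). SPTB by the larger probe had a contrast of -2.45 ± 0.47 (SE) and limma's adjusted p was 0.347, the smallest value reached, which CXCL12, CXCR3 and other probes shared. For PLA2G2A the mean of the other systems was -0.17 and the contrast 1.44 ± 0.45 (SE), with limma's adjusted p at 0.394. Of the 673 lower probes 50 (7.43%) were 2-fold lower on the mean in H1 in E8 Medium, 18 (2.67%) in MEF-conditioned medium, 10 (1.49%) in KhES-1 and 51 (7.58%) in 253G1, against 2.27%, 1.23%, 0.228% and 2.83% of all tested probes. In the same order 3.57%, 2.23%, 4.16% and 3.57% of them were 2-fold higher, against 1.03%, 0.368%, 0.708% and 1.11% of all tested probes. Both directions were thus more frequent among them. In the 4 bFGF cultures, in this order, 32.5%, 76.7%, 44.4% and 29.0% of the 673 were well above background. Over all tested probes it was 83.6%, 98.4%, 91.6% and 80.5%, so many of the signals compared were dim. The 46 higher probes had median differences of -0.34, -0.70, -0.10 and -0.57 in these systems. Of these probes 13.04%, 32.61%, 2.17% and 23.91% were 2-fold lower, against 2.27%, 1.23%, 0.228% and 2.83% of all tested probes. In the bFGF cultures 34.8%, 76.1%, 67.4% and 39.1% of the 46 were well above background. A count of 0 were 2-fold higher in any system. With 0.368% to 1.11% of all tested probes 2-fold higher, that count is near the background.

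**Figure D5:**
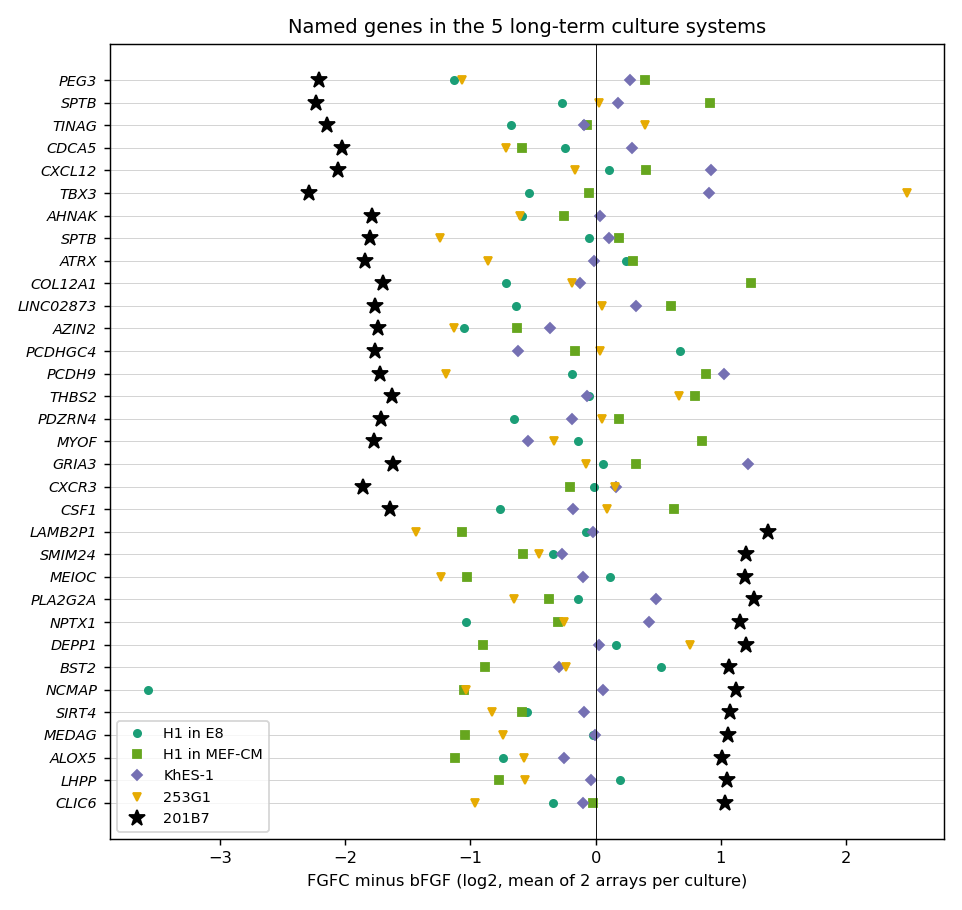
FGFC minus bFGF difference (x axis, log2, mean of 2 arrays per culture) in 201B7 (stars) and in the other 4 long-term systems. The genes (y axis, 2 SPTB probes) are the named largest falls and rises among probes well above background on all 4 arrays. The stars lie at -2.29 to -1.62 for falls and 1.01 to 1.38 for rises, and the other systems scatter on both sides of 0.

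Further comparisons on H1 show the 673 probes in differentiated cells and after 4 days without FGF. In the differentiated H1 culture 26.7% of them were 2-fold or more above the mean of the 3 H1 pre-cultures in E8 Medium, against 11.8% of all tested probes, and 18.3% were 2-fold or more below, against 18.1%. After 4 days without FGF 7.13% were 2-fold higher than with bFGF on the means of 3 experiments, against 4.12% of all tested probes, and 7.28% were 2-fold lower, against 7.35%. Of the 673 probes 49.9% were well above background in the differentiated culture, against 87.3% of all tested probes. In the cultures without FGF it was 34.2% to 39.5%, against 83.1% to 85.0%. Many of these signals were thus dim, and no test was run on these shares.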

How the data were processed

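The authors deposited scanner output of Agilent Feature Extraction 10.7.3.1 (named in the file headers) for each array. Signal intensity, as deposited by the authors, is background-subtracted, linear and not scaled between arrays, and their median spot and background intensities are raw. After removal of control and outlier spots, a minimum of 1 was applied and signals were put on a log2 scale and averaged by probe, and the array's 75th percentile, which the study's methods name, was subtracted. A probe was well above background where at least 0.5 of its spots carried the mark. No probe was saturated on these arrays.

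Gene names came from RefSeq accessions (25711 probes) or, except for lincRNA regions, from the study's supplementary tables (1106 probes), which list changed probes. Another 15588 probes had no symbol. Named genes were, among probes with a symbol, the markers TBX3, SPTB and PLA2G2A, up to 20 largest falls and 15 largest rises above background on all 4 arrays, up to 8 falls and 5 rises dim in one culture, up to 6 changed members of each list and all core pluripotency genes. Results for some genes that met these rules are not reported here. These members, lists and rules were chosen with earlier results of these data known.

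Fits used limma 3.58.1 in R 4.3.3 (lmFit, eBayes, Benjamini-Hochberg adjustment), and other steps Python 3.11.15, numpy 2.4.6, pandas 2.3.3 and matplotlib 3.10.9. Counting and fitting were tested on simulated data. Alternatives were background correction (normexp, offset 50), normalization, floor, filter on dim probes, fold threshold, array pairing and leaving out arrays or systems. The count of genes by any changed probe, the floor of the lower bounds and the normexp calls of single genes were chosen after seeing the data. The authors' value table was not used.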

Additional observations from a re-analysis of the deposited data

Results flagged for a closer look

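In 3 of the named genes both 201B7 array differences were above 0 and all 8 of the other 4 systems were below 0. None of the 3 passed limma's test of the difference. The share of all tested probes that meet this sign rule was not counted, so these genes are not set apart from it. The 2 arrays of a culture are technical, and the 46 higher probes as a set had medians below 0 in all 4 other systems. ALOX5, the enzyme that starts leukotriene synthesis, was 1.01 higher with FGFC on the log2 scale in 201B7 and lay between -1.17 and -0.20 elsewhere, with limma's adjusted p at 0.348. SMIM24, a small membrane protein, was 1.20 higher against -0.65 to -0.11 elsewhere, with limma's adjusted p at 0.347. SIRT4, a mitochondrial sirtuin, was 1.07 higher against -1.02 to -0.06 elsewhere, with limma's adjusted p at 0.348.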

How the results depend on the processing

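No paired analysis was possible because each arm of 201B7 was 1 culture. The counts of 673 lower and 46 higher probes moved with most settings, and lower probes outnumbered higher ones in every one of them. They were 144 and 3 under normexp, 438 and 145 under quantile normalization, 1097 and 133 with no filter on dim probes, 404 and 15 with all 4 arrays above background, 2678 and 477 at 1.5-fold, 106 and 9 at 3-fold, and 1085 and 93 on the mean of the arrays alone. With dim signals raised to the lowest one well above background they were 482 and 21. Without replicate 1 or 2, that is on 1 array a side, they were 1297 to 1328 lower and 154 to 172 higher. Fewer probes or arrays, or another threshold, enter some of these by construction. The offset of 50 under normexp also shrinks the differences of dim probes by construction. The cause was not tested for the others. In the comparison of 201B7 with the other systems 95 probes passed under normexp, in place of 0, and 0 passed under the other alternatives. The HOX median was -0.80 under normexp and -1.30 to -1.09 under the other settings run. Of the 46 list medians 10 changed sign in at least 1 setting, with amnion and trophoblast genes at 0.08 under quantile normalization against -0.13. No named gene changed sign, but 41 of 47 named probes moved by more than the array spread under normexp and 31 under quantile normalization. Under normexp HOX genes counted as lower were 3 in place of 9. With any probe of a gene counted, HOX genes stayed at 9 and the matrix list had 6 in place of 5. Dim probes limit most of the largest folds to a bound, and only 1 culture a side was measured.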
